A study of Sus scrofa with 16 samples.

Results

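The genes described here are *C1R*, *C1S*, *C2*, *C3*, *C7*, *CFB*, *CFD*, *CFI* and *SERPING1*, components and regulators of the complement system that connective tissue cells can make outside the liver. They were taken by symbol from the deposited tables of pig myocardial RNA, and all 9 had an entry among 22629 genes. *CFB* and *CFI* were listed under the Ensembl identifiers ENSSSCG00000024914 and ENSSSCG00000009138, and the other 7 by symbol. Left ventricular tissue came from 8 pigs operated on at about 1 month of age and examined 4 weeks later. In the 4 IR (ischemia/reperfusion) pigs the left anterior descending artery was closed for 1 h below its second diagonal branch and then reopened, and the 4 sham pigs had the operation without the closure. Both zones were sampled once in each animal, which made 16 samples in 4 groups of scar zone and border zone tissue. The scar zone was the tissue just beyond the suture in both surgeries, so in IR pigs it held viable myocardium beside the scar, and in sham pigs it held no induced scar. Pigs 2 and 14 (IR) and 4 and 5 (sham) were female, and pigs 9 and 11 (IR) and 12 and 13 (sham) were male. The animals were White Yorkshire-Landrace farm pigs.

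Complement is a cascade of proteases and binding proteins that tags and lyses targets and attracts leucocytes. In the classical pathway, antibody or altered surfaces bind C1q, the proteases C1r and C1s become active and cut C4 and C2, and the C3 convertase so formed cleaves C3. Factor B and factor D build the convertase of the alternative pathway, C7 belongs to the terminal complex, and factor I and C1 inhibitor, the product of *SERPING1*, restrain the cascade. Most circulating complement comes from the liver, while fibroblasts, macrophages and fat cells make several components locally.

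The total of the estimated counts ran from 15427663 to 49045206 over the 16 samples. The 4 libraries of the male IR pigs were the deepest, at 33521418 counts or more, against 27088652 or fewer in the other 12. Levels are given as CPM, the counts relative to the library total after scaling by the trimmed mean of M values (TMM), or as TPM, which also corrects for transcript length. A count of 3 corresponds to between 0.0612 and 0.194 CPM, which covers counting error only. The sex labels were checked with the Y-linked gene *DDX3Y*, which had 1408 to 4460 counts in male libraries and 8 to 21 in female libraries, except for 66 in the scar zone library of female IR pig 14. In that library *KDM5D*, also Y-linked, had 6 counts against 0 in the other female libraries. Counts of the 9 genes called, or log2 differences, are therefore also given without pig 14 where that pig was in the fit. The quasi-likelihood test of edgeR set IR against sham pigs in each zone, and a gene is called here when its fold change reaches 2 and its p-value, unadjusted or adjusted as stated, is 0.05 or less. Spread between pigs is the error in all these comparisons.

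In the sham myocardium, *SERPING1* had the highest level per transcript length of the 9 genes, with a mean of 56.1 TPM over the 8 sham samples (range 43.7 to 70.7). It was followed by the classical pathway proteases and factor D, with means of 34.1 TPM for *C1R*, 31.7 TPM for *CFD* and 28.7 TPM for *C1S*. *C1R* was above *CFD* in 4 of 8 samples, so that these neighbours did not differ beyond their spread, and *CFD* was above *C1S* in 6 of 8. The central component *C3* averaged 13.6 TPM and *C7* 8.67 TPM. *C2*, *CFI* and *CFB* were the lowest, at 2.01, 1.60 and 0.203 TPM. *CFB* had as few as 7 counts in a library, and its values are the least precise. The 9 genes together reached 124 to 235 TPM in the sham samples, of which *C1R*, *C1S* and *SERPING1* made up 63.4% to 70.6%. In the scar zone of the male IR pigs 9 and 11 the sum was 850 and 1100.0 TPM.

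In the scar zone, 8 of the 9 genes had a higher fitted mean in IR than in sham pigs, and the difference lay in the 2 male IR pigs. Both stood above the 6 other pigs for *C1R*, *C1S*, *C2*, *C3*, *C7*, *CFB*, *CFI* and *SERPING1*, while the female IR pigs had values near those of the sham pigs. Such a pattern was present in 18.0% of all 14023 genes tested. For 0 of the 9 genes did all 4 IR pigs exceed all 4 sham pigs, a pattern that 2.20% of all genes had. Only *CFD*, the factor D gene, lacked the elevation.

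**Figure D1:**
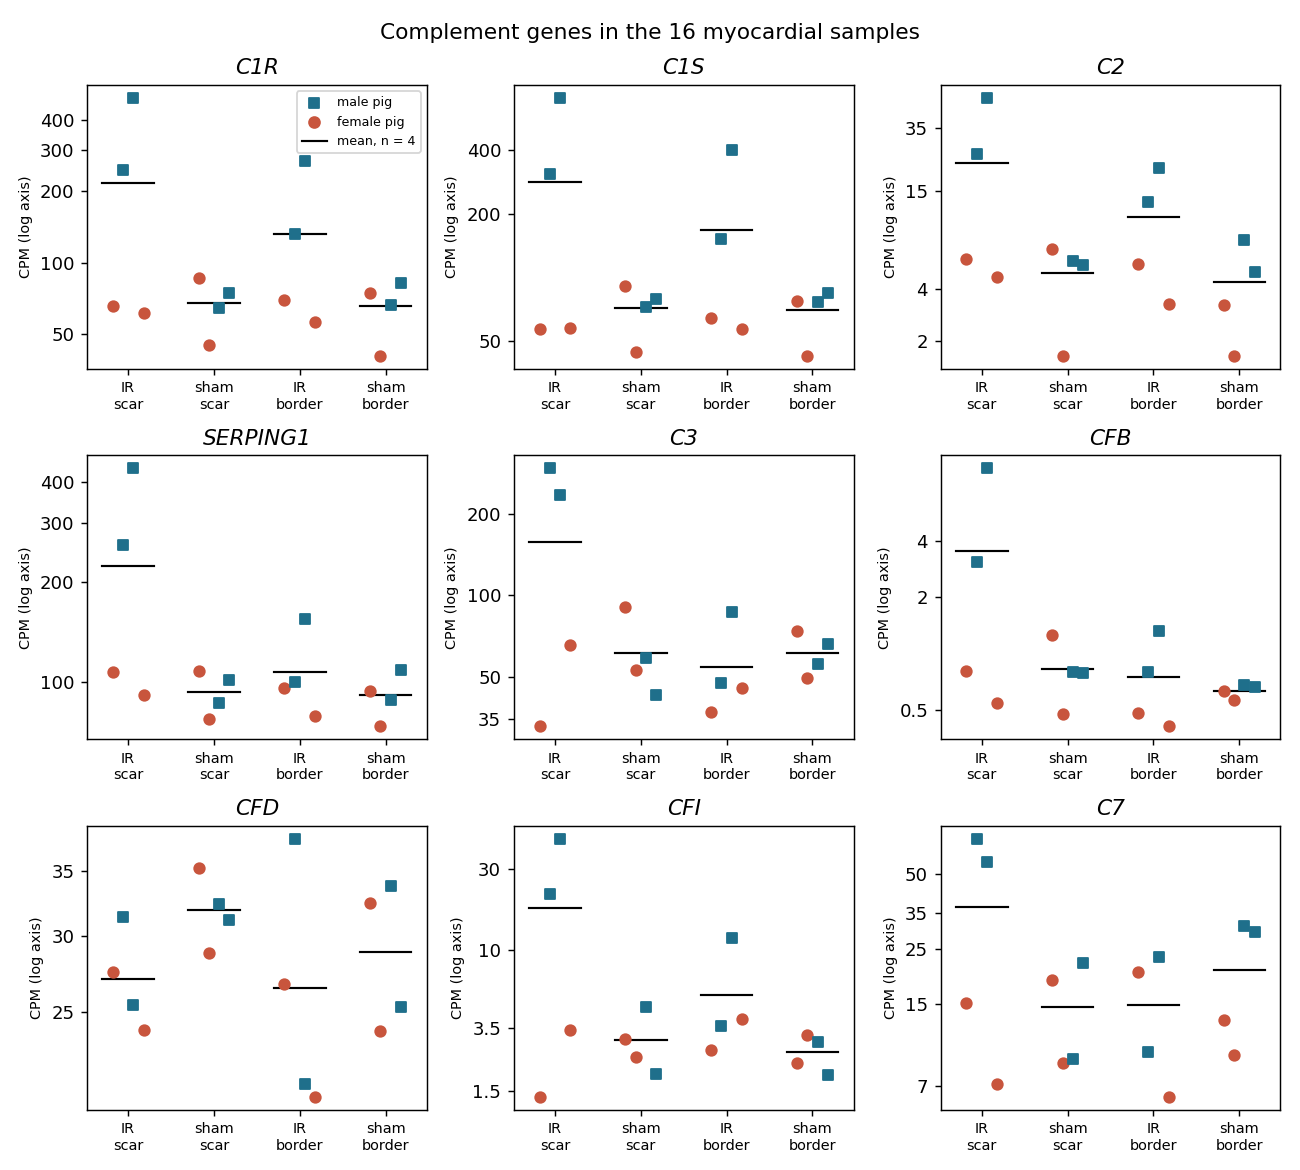
Level of each complement gene in CPM, on a log axis, in the 4 groups of 4 samples; squares are male and circles female pigs, and the line is the group mean. The 2 male IR pigs lie above all other pigs in the scar zone for every gene except *CFD*, and in the border zone for *C1R*, *C1S*, *C2* and *CFB*.

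*C1R* and *C1S* encode the paired proteases of the C1 complex, and their genes are neighbours on pig chromosome 5 in the RefSeq annotation of Sscrofa11.1. *C1R* was at 65.4 and 61.1 CPM in the scar zone of female IR pigs 2 and 14 and at 248 and 498 CPM in male IR pigs 9 and 11. The sham pigs 4, 5, 12 and 13 had 85.9, 44.9, 64.3 and 73.9 CPM. The groups thus overlapped, with the female IR pigs inside the sham range and the male IR pigs above it. *C1S* was at 57.5 and 57.7 CPM in the female and at 309 and 708 CPM in the male IR pigs, against 91.3, 44.6, 72.5 and 79.4 CPM in the sham pigs. The fitted log2 fold change was 1.69 (SE 0.62) for *C1R* and 1.97 (SE 0.74) for *C1S*. Both passed the unadjusted threshold and neither the adjusted one (edgeR with Benjamini-Hochberg adjustment, adjusted p = 0.438 for both).

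*C2*, the protease cleaved by C1s, was lower in level and showed the same division. Its scar zone values were 6.01 and 4.70 CPM in the female IR pigs and 24.7 and 52.2 CPM in the male IR pigs. In the sham pigs 4, 5, 12 and 13 they were 6.87, 1.64, 5.89 and 5.57 CPM. The female IR pigs fell within the sham range, and the fitted log2 fold change over all 8 pigs was 2.13 (SE 0.75, adjusted p = 0.438, edgeR). *SERPING1*, whose product inactivates C1r and C1s, was at 107 and 91.0 CPM in the female and at 258 and 439 CPM in the male IR pigs. Its sham values were 108, 77.3, 86.1 and 101 CPM, with the smallest ratio of highest to lowest sham value of the elevated genes (1.40). The fold change of the inhibitor was smaller than those of the proteases, at 1.26 on the log2 scale (SE 0.45, adjusted p = 0.438, edgeR). The ratio of *C1S* to *SERPING1* in TPM was 0.800 and 1.08 in the male IR pigs, 0.346 and 0.414 in the female IR pigs, and 0.384 to 0.567 in the sham pigs. Between IR and sham pigs this ratio did not differ (two-sided exact permutation test of the log2 ratio, p = 0.571 in scar and 0.314 in border zone tissue).

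*C3*, on which all pathways converge, was at 33.0 and 65.8 CPM in female IR pigs 2 and 14 and at 294 and 234 CPM in male IR pigs 9 and 11. The sham pigs had 90.6, 53.3, 58.9 and 43.0 CPM, so that pig 2 was the lowest of the 8 pigs and pigs 9 and 11 the highest. The log2 fold change was 1.34 (SE 0.60, adjusted p = 0.445, edgeR), and the unadjusted p-value lay just inside its threshold. Unlike the classical proteases, *C3* was higher in pig 9 than in pig 11, as was *C7*. *CFB*, which encodes the protease of the alternative convertase, was at 0.81 and 0.54 CPM in the female and at 3.08 and 9.76 CPM in the male IR pigs. In sham pigs it was at 1.26, 0.47, 0.80 and 0.79 CPM, or 11 to 28 counts. Its log2 fold change was 2.11 (SE 0.81, adjusted p = 0.438, edgeR).

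*CFD* encodes factor D (adipsin), an activator of factor B that fat cells secrete. It was at 27.5 and 24.0 CPM in the female and at 31.3 and 25.5 CPM in the male IR pigs, with 35.2, 28.8, 32.3 and 31.1 CPM in the sham pigs. The groups overlapped in a narrow span, with 3 of the 4 IR pigs below all sham pigs in CPM. In TPM it was at 29.3, 49.8, 30.6 and 24.1 in IR pigs 2, 9, 11 and 14 and at 28.2 to 39.6 in sham pigs, so that pig 14 alone was below them and pig 9 was the highest. The log2 fold change from the counts was -0.24 (SE 0.12, adjusted p = 0.479, edgeR). Summed TPM of 8 adipocyte markers ran from 136 to 248 in the IR and from 115 to 191 in the sham scar zone, and the defining adipocyte gene *ADIPOQ* did not exceed 0.369 TPM in the scar zone. *PLIN1* and *LEP*, also fat cell genes, were at 0 in some libraries.

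*CFI* encodes factor I, the protease that cuts C3b and C4b. It spanned the widest range, 32.4-fold within the IR scar zone, from 1.39 CPM in pig 2 and 3.40 CPM in pig 14 to 21.5 CPM in pig 9 and 44.9 CPM in pig 11. The sham pigs had 3.03, 2.37, 4.66 and 1.90 CPM, so that pig 2 lay below them all. *CFI* had the largest log2 fold change of the 9 genes, 2.57 (SE 0.90, adjusted p = 0.438, edgeR), the 63rd highest of 14023 genes tested. *C7*, a terminal component, was at 15.1 and 7.08 CPM in the female IR pigs, at 69.4 and 55.9 CPM in their male counterparts and at 18.7, 8.63, 9.0 and 21.8 CPM in the sham pigs. Its log2 fold change of 1.35 (SE 0.64) did not pass the unadjusted threshold (adjusted p = 0.457, edgeR).

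By the unadjusted p-value, 7 of the 9 genes were called in the scar zone, all higher in IR pigs, where 2.74% of all genes tested were called in that direction. After Benjamini-Hochberg adjustment the edgeR test called 0 of the 9 and 0% of all genes, with adjusted p between 0.438 and 0.479 for the 9, and DESeq2 called 6 unadjusted, against 2.76% of all genes, and 0 adjusted. The median log2 fold change was 1.69 for the 9 genes and 0.03 for all genes tested. The count rested on single pigs: it was 0 without IR pig 11, 2 without sham pig 5, 4 without sham pig 12 and 8 without pig 14, and it was 1 with sex as a covariate. Over all genes, those called higher numbered 214, 267, 322, 686 and 272 in that order, against 384 in the full fit. Exact permutation of the 8 pigs, where the smallest possible two-sided p is 0.0286, gave p = 0.0857 for *CFD* and between 0.143 and 0.371 for the 8 elevated genes on log2 CPM. On log2(TPM + 1) the permutation p was 0.886 for *CFD* and between 0.20 and 0.343 for the others. These genes were chosen with earlier results of these samples known, and the count is a description.

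**Figure D2:**
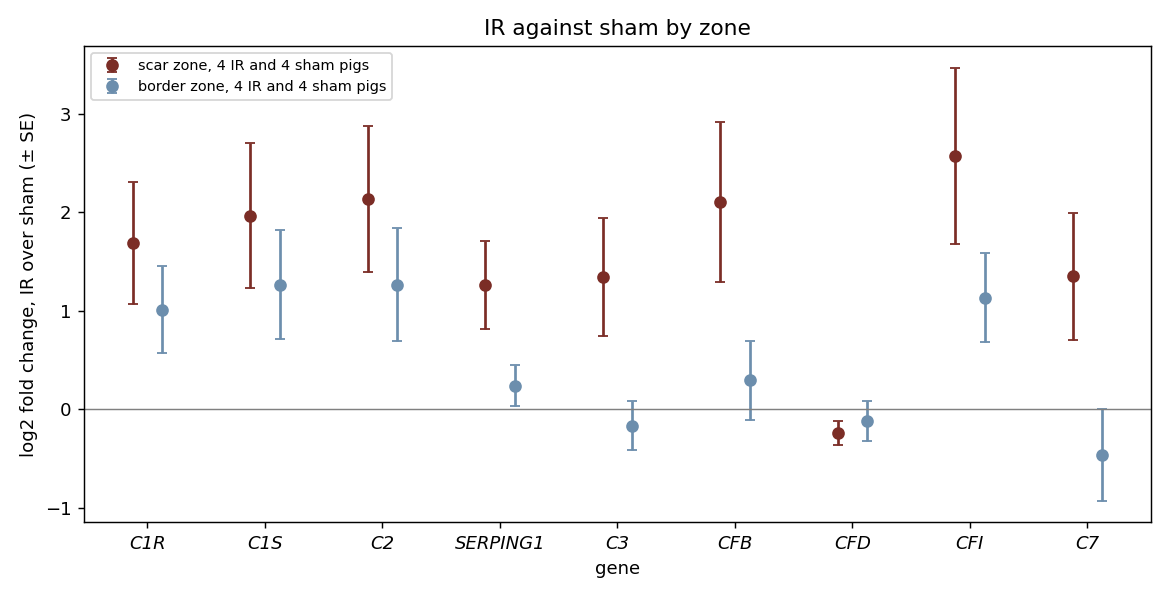
Log2 fold change of IR over sham pigs with its standard error, for each complement gene by zone (4 IR and 4 sham pigs each, edgeR). The scar zone values of *SERPING1*, *C3*, *CFB* and *C7* lie above their border zone values, which are between -0.46 and 0.29, whereas *C1R*, *C1S*, *C2* and *CFI* are above 1 in both zones.

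The difference between male and female pigs was tested as an interaction of sex and surgery, chosen after the values had been seen. In male pigs, IR over sham scar zone means were 5.40-fold for *C1R*, 6.69-fold for *C1S*, 6.71-fold for *C2*, 5.18-fold for *C3*, 4.07-fold for *C7*, 8.09-fold for *CFB*, 10.1-fold for *CFI*, 3.73-fold for *SERPING1* and 0.895-fold for *CFD*. In female pigs the same ratios lay between 0.687 for *C3* and 1.26 for *C2*. The male minus female difference passed the unadjusted threshold for 8 of the 9 genes, against 6.08% of all genes in that direction, and for *C3* alone after adjustment (log2 difference 2.93, SE 0.51, adjusted p = 0.0403, edgeR with Benjamini-Hochberg adjustment), against 1.11% of all genes. *CFD* had a difference of 0.17 (SE 0.23). The interaction was also fitted without each pig in turn, which left a group of sex and surgery with no replicate. The log2 difference of *C3* then ran from 2.49 (without pig 4) to 3.51 (without pig 14), and *C3* did not pass after adjustment in any of these fits (edgeR). Which of the 9 genes passed after adjustment depended on the pigs in the fit. For *C1R*, *C1S* and *SERPING1* the differences were 2.49, 2.99 and 1.81 with all pigs. They were 2.92, 3.48 and 2.16 without pig 9, and 1.91, 2.28 and 1.39 without pig 11. Fitted within males, 8 genes were called unadjusted, against 7.50% of all genes higher in IR pigs, and 7 adjusted, against 3.26%. Within females 0 of 9 were called, against 2.82% of all genes unadjusted and 0.00727% adjusted (edgeR), with log2 fold changes from -0.57 for *C3* to 0.30 for *C2*. Each sex had 2 pigs per surgery, so sex and the individual pig cannot be told apart. The libraries of the male IR pigs were also the deepest, and the part of depth was not tested.

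**Figure D3:**
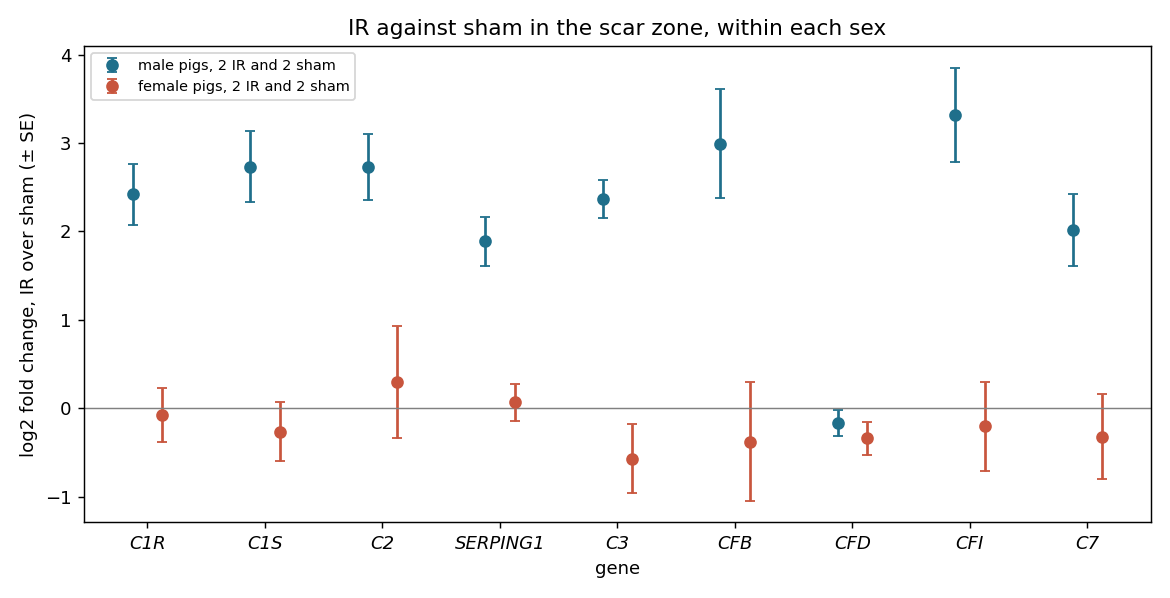
Log2 fold change of IR over sham in the scar zone with its standard error, fitted in the 4 male and in the 4 female pigs separately (2 IR and 2 sham each, edgeR). The male values run from 1.89 to 3.32 for the 8 genes other than *CFD*, and the female values from -0.57 to 0.30.

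In the border zone the elevation was carried by the classical pathway proteases and *CFI*. *C1R* was at 132 and 270.0 CPM in male IR pigs 9 and 11, at 69.7 and 56.3 CPM in female IR pigs 2 and 14, and at 74.3, 40.3, 66.4 and 82.1 CPM in sham pigs 4, 5, 12 and 13. *C1S* reached 152 and 402 CPM in the male IR pigs against 64.1 and 57.3 CPM in the female IR pigs and 42.7 to 84.9 CPM in the sham pigs. *C2* was at 12.9 and 20.4 CPM in pigs 9 and 11, at 5.60 and 3.27 CPM in pigs 2 and 14 and at 3.26, 1.64, 7.77 and 5.05 CPM in the sham pigs. For all of these the male IR pigs stood above the other 6 pigs. For *CFI* only pig 11, at 11.8 CPM, stood clearly apart, since pig 9 had 3.61 CPM, pigs 2 and 14 had 2.61 and 3.97 CPM, and the sham pigs had 1.86 to 3.17 CPM. The log2 fold changes were 1.01 (SE 0.44) for *C1R*, 1.26 (SE 0.55) for *C1S*, 1.13 (SE 0.45) for *CFI* and 1.26 (SE 0.57) for *C2*, of which *C2* did not pass the unadjusted threshold.

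The remaining genes were near the sham level in the border zone. *C3* was at 37.3, 47.7, 86.8 and 45.7 CPM in IR pigs 2, 9, 11 and 14 and at 49.5 to 73.8 CPM in sham pigs, with 3 IR pigs below all sham pigs. *SERPING1* was at 95.5, 100.2, 154 and 79.0 CPM in the same IR pigs and at 73.4 to 109 CPM in sham pigs, so that pig 11 alone was higher. *C7* had 20.2, 9.59, 23.1 and 6.31 CPM in IR pigs and 9.32 to 30.9 CPM in sham pigs. *CFB* had 0.48, 0.80, 1.32 and 0.41 CPM in IR pigs and from 0.56 to 0.68 CPM in sham pigs. *CFD* overlapped fully, at 20.5 to 37.8 CPM in IR and 23.9 to 33.7 CPM in sham pigs. The log2 fold changes of these 5 genes ran from -0.46 for *C7* to 0.29 for *CFB*. The ratio of *C3* to *SERPING1* in TPM was 0.141 to 0.211 in the IR and 0.218 to 0.285 in the sham border zone (two-sided exact permutation test, p = 0.0286, the smallest possible, 1 of 8 ratio tests), and in the scar zone the same test gave p = 0.914.

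In all, 3 of the 9 genes were called unadjusted in the border zone, where 0.517% of all 13728 genes tested were called higher. The adjusted test called 0 of the 9 and 0% of all genes (edgeR, adjusted p from 0.988 to 0.99), and DESeq2 called 1 unadjusted, against 0.510% of all genes, and 0 adjusted. The median log2 fold change of the 9 genes was 0.29, and that of all genes was 0.00. Leaving out pig 4, 11 or 13 gave a count of 0, leaving out pig 5 or 9 a count of 1, and leaving out pig 14 a count of 4. Over all genes, those called higher numbered 54, 29, 71, 46, 125 and 126 in that order, against 71 in the full fit. Both male IR pigs exceeded the other 6 pigs for 4 of the 9 genes, against 4.90% of all genes, and all IR pigs exceeded all sham pigs for 0 of 9, against 0.794%. The male minus female difference was called unadjusted for *C1R* (log2 1.30) and *C1S* (log2 1.77), 2 of 9 against 1.56% of all genes. That count was 0 without pig 4 or 12 and 4 without pig 9, with *C3* and *CFI* added. It was 1, *C1S*, without pig 2 or 13, and without pig 11 or 14 only *C7* was called, at -1.90 and -1.73 on the log2 scale.

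Whether the scar zone differed from the border zone was examined within each pig and as a difference of the IR effects. In IR pig 9, scar over border ratios in CPM were 7.24 for *C7*, 6.15 for *C3*, 5.95 for *CFI* and 3.86 for *CFB*, against 2.58 for *SERPING1*, 2.03 for *C1S*, 1.92 for *C2* and 1.87 for *C1R*. In pig 11 the order differed, with 7.41 for *CFB*, 3.82 for *CFI*, 2.85 for *SERPING1*, 2.70 for *C3*, 2.56 for *C2* and 2.42 for *C7*, and 1.85 and 1.76 for *C1R* and *C1S*. The classical proteases therefore had the smallest zone ratios of the elevated genes in both male IR pigs, apart from *C2* in pig 11. In female IR pigs 2 and 14 the ratios of these 8 genes were between 0.531 and 1.67, and in sham pigs between 0.291 and 2.11. *C2*, *CFB* and *SERPING1* were higher in the scar zone of all 4 IR pigs, 3 of 9 genes against 10.7% of all genes.

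**Figure D4:**
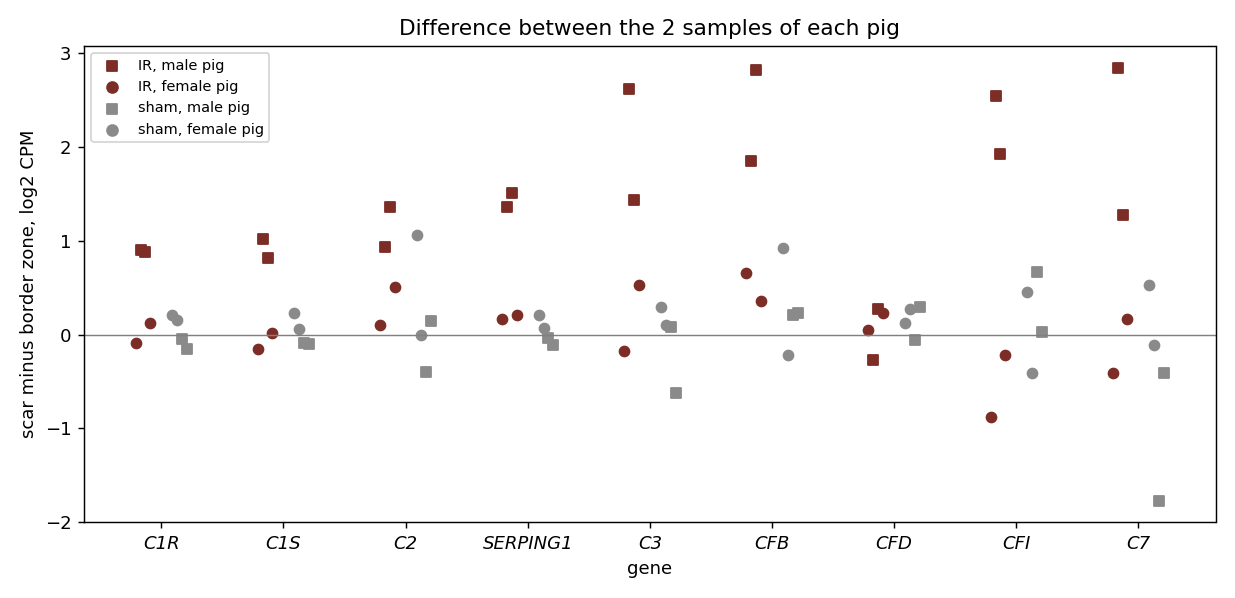
Difference in log2 CPM between the scar and border zone samples of each pig, for each complement gene; dark red marks IR and grey sham pigs, squares male and circles female pigs. The 2 male IR pigs have the largest positive differences for *C1R*, *C1S*, *SERPING1*, *C3*, *CFB*, *CFI* and *C7*, and not for *CFD*.

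Between the zones of IR pigs, *CFB* (log2 2.21, SE 0.85) and *C3* (log2 1.53, SE 0.62) were called unadjusted by edgeR (adjusted p = 0.989 for both), 2 of 9 genes against 1.69% of all genes higher in the scar zone. With the pig as a block, which pairs the 2 samples of an animal, the same 2 genes were called, at 1.81 and 1.11 on the log2 scale, against 1.50% of all genes. The unblocked count was 0 without pig 9 or without pig 11 and 3 without pig 14. Over all genes, those called higher in the scar zone numbered 67, 98 and 378 in that order, against 239 with all IR pigs. In sham pigs 0 of 9 genes were called, against 0.101% of all genes, with 0 of 9 at an unadjusted edgeR p-value under the threshold whatever the fold change, and limma and DESeq2 also called 0. The IR effect was larger in scar than in border tissue for 1 of 9 genes, *C3* (log2 difference 1.52, SE 0.70, adjusted p = 1.00, edgeR), against 1.32% of all genes. With the pig as a block 2 were called, *C3* (log2 1.15) and *CFB* (log2 1.5, adjusted p = 0.702 for both, edgeR), against 1.39% of all genes in that fit. Without pig 4, 5, 9, 12 or 13 the unblocked count was 0, without pig 2 it was 3 and without pig 14 it was 4. Over all genes, those larger in the scar zone numbered 182, 123, 80, 112, 118, 350 and 316 in that order, against 189 with all pigs. The exact permutation test of the within-pig differences between IR and sham pigs gave p between 0.0857 for *SERPING1* and 0.60 for *CFD*. Hence a zone difference of the IR effect was not shown for the classical proteases. The unblocked log2 differences were 0.69 (SE 0.83) for *C1R*, 0.72 (SE 1.00) for *C1S* and 0.88 (SE 1.02) for *C2*. With the pig as a block they were 0.42 (SE 0.23), 0.41 (SE 0.25) and 0.60 (SE 0.35). Between the zones of IR pigs *C2* was at 0.79 (SE 0.21) in the blocked fit, below the fold threshold (unadjusted p = 0.00797, adjusted p = 0.431, edgeR).

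The elevated genes moved together over the 16 samples. Among the 8 genes without *CFD*, the 28 pairwise Pearson correlations of log2 CPM ran from 0.56 (*C7* with *CFI*) to 0.995 (*C1R* with *C1S*), with a median of 0.859. The samples share pigs, and the male IR samples lie apart, so the same correlations were computed over the other 12 samples. *C1R* and *C1S* then still had r = 0.944 and *C1R* and *SERPING1* 0.888, whereas *CFI* had r = -0.586 with *SERPING1* and -0.531 with *C7*. The median of the 28 fell to 0.52. *CFD* correlated with the other 8 genes between -0.189 and 0.144 over all 16 samples, and between -0.135 (*CFI*) and 0.719 (*CFB*), with a median of 0.455, over the 12.

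Of 9814 other genes with a mean of at least 5 CPM, those nearest in pattern differed between members. *C1R* and *SERPING1* were nearest to *IFI30*, a lysosomal thiol reductase induced by interferon gamma (r = 0.962 and 0.968 over 16 samples, and 0.814 and 0.878 over the 12 without the male IR pigs), followed by *CSF1*, the macrophage growth factor, for *C1R* (r = 0.962, and 0.730 over the 12) and the collagen crosslinking enzyme *LOX* for *SERPING1* (r = 0.949, but 0.429 over the 12). *C1S* was nearest to *KHNYN* (r = 0.955, and 0.833 over the 12) and to the macrophage product *C1QC* (r = 0.953, and 0.902 over the 12). *C2* was nearest to the leucocyte genes *CYTH4* and *LAT2* (r = 0.945 and 0.941, and 0.923 and 0.840 over the 12). *C7* was nearest to *TCF21*, a transcription factor of cardiac fibroblasts (r = 0.922, and 0.870 over the 12), and to *KIAA1755* (r = 0.896, and 0.753). *CFB* was nearest to *NFKBIZ* and *AXL* (r = 0.948 and 0.947, and 0.682 and 0.697 over the 12), and *C3* to *RAI14* and *SCPEP1* (r = 0.918 and 0.913, and 0.632 and 0.605 over the 12). *CFI* was nearest to *SCPEP1* and *SAMHD1* (r = 0.937 and 0.927, but 0.467 and 0.299 over the 12), and *CFD* to *RASL11B* and *DECR2* (r = 0.841 and 0.838, and 0.900 and 0.826 over the 12). These values describe the samples and carry no test.

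Of the other complement genes, 34 of 43 listed had an entry and 27 were tested in the scar zone. The genes past the unadjusted threshold there were *C4A* and *FCN1*, higher in IR pigs, and *CSMD1*, lower. *C4A*, the C4 component cut by C1s, was at 65.2 and 138 CPM in male IR pigs 9 and 11 and at 1.98 to 5.26 CPM in the other 6 scar zone samples. Its log2 fold change of 3.95 (SE 1.11, adjusted p = 0.438, edgeR) was the 9th highest of all genes tested. The male minus female difference of the IR effect in the scar zone passed the unadjusted threshold for 8 of these 27 genes, all larger in males, against the 6.08% of all genes given above, and for *C4A* alone after adjustment (log2 4.89, adjusted p = 0.0361, edgeR with Benjamini-Hochberg adjustment). The others were *FCN2*, a ficolin of the lectin pathway (log2 5.08), *C4BPA*, a chain of the C4b-binding protein (3.49), *CFP*, the properdin gene (2.70), *COLEC12*, a collectin (1.29), and the C1q genes. Over both sexes *FCN2* averaged 0.825 CPM with IR and 2.03 CPM without it (log2 fold change -1.23, adjusted p = 0.587, edgeR), so its difference between the sexes does not show a level above sham. Without each pig in turn the count for the other complement genes was 5 to 11, and *C4A* passed after adjustment only without pig 5 or 9. Pigs 9 and 11 had 9.93 and 28.1 CPM of *C4A* in the border zone, where sham pig 13 had 13.8 CPM. *C4B* has no entry, and the value of *C4A* is uncertain where reads of another C4 copy could be assigned to it. *FCN1*, a lectin pathway recognition protein of monocytes, had a log2 fold change of 2.12, and *CSMD1*, a complement inhibitor at no more than 0.298 TPM, one of -1.64 (adjusted p = 0.438 for both, edgeR). *FCN1* and *CSMD1* also passed for the difference of the IR effect between the zones (1.69 and -1.71 on the log2 scale, adjusted p = 1.00, edgeR), and *CSMD1* was lower in scar than in border tissue of IR pigs (log2 -1.37, adjusted p = 0.989, edgeR). *VTN* (vitronectin) was lower in CPM in all IR than in all sham scar zone samples by less than the fold threshold, while its TPM values overlapped, at 15.2 to 18.5 and 17.6 to 22.9 (log2 fold change -0.50, adjusted p = 0.438, edgeR).

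The genes of the C1q recognition subunit, which macrophages make, had log2 fold changes of 0.63 (*C1QA*), 0.78 (*C1QB*) and 0.77 (*C1QC*) in the scar zone, and 0 of the 3 passed the unadjusted threshold (adjusted p from 0.454 to 0.524, edgeR). The male minus female differences of the 3, counted above, were 1.17, 1.22 and 1.36 on the log2 scale (adjusted p from 0.172 to 0.216, edgeR). The terminal components *C5*, *C6*, *C8A* and *C9* did not exceed 0.247 TPM in any sample and were not tested. *C8B* and *C8G*, which encode chains of the terminal component C8, were tested and did not pass in the scar zone, at log2 fold changes of -0.29 and -0.31 (adjusted p = 0.689 and 0.742, edgeR), with *C8G* at up to 4.48 TPM. *MBL2* and *FCN3*, lectin pathway recognition genes, were listed at 0 in all samples.

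In bulk tissue, a change in the number of cells of a type and a change in RNA per cell cannot be told apart. The summed TPM of 10 fibroblast markers was 9690 to 10400 in the scar zone of the male IR pigs, 1470 to 1890 in the female IR pigs and 1860 to 2550 in the sham pigs. In the border zone of the male IR pigs it was 1910 to 2270, within the sham range of 1600 to 2390, although *C1R* and *C1S* were higher there. The largest values in the scar zone sum were those of *COL3A1*, *COL1A2* and *COL1A1*, at up to 4610, 2050 and 2030 TPM in IR pigs. All 10 fibroblast markers had positive fold changes in the scar zone, as had 7560 of the 14023 genes tested, and 3 were called unadjusted, where 2.74% of all genes were. Their median log2 fold change was 0.69, from 0.26 for *PDGFRA* to 1.96 for *COL1A1*. The defining gene *PDGFRA* was at 5.15 to 25.6 TPM in IR and 7.75 to 12.5 TPM in sham pigs. Macrophage markers (7 of 8 listed in the tables) summed to 104 to 123 TPM in the male IR scar zone against 37.8 to 40.6 TPM in the female IR and 31.7 to 55.0 TPM in the sham pigs, with *CD163* up to 33.5 TPM. Lymphocyte markers (8 of 8) summed to 36.7 to 44.3 TPM in the male IR scar zone and to 6.07 to 31.0 TPM in sham pigs. A list of 12 interferon gamma response genes summed to 516 to 997 TPM in the male IR scar zone and 381 to 892 TPM in their border zone, against 96.3 to 208 TPM in all sham samples. The part of these lists in the result was not tested.

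**Figure D5:**
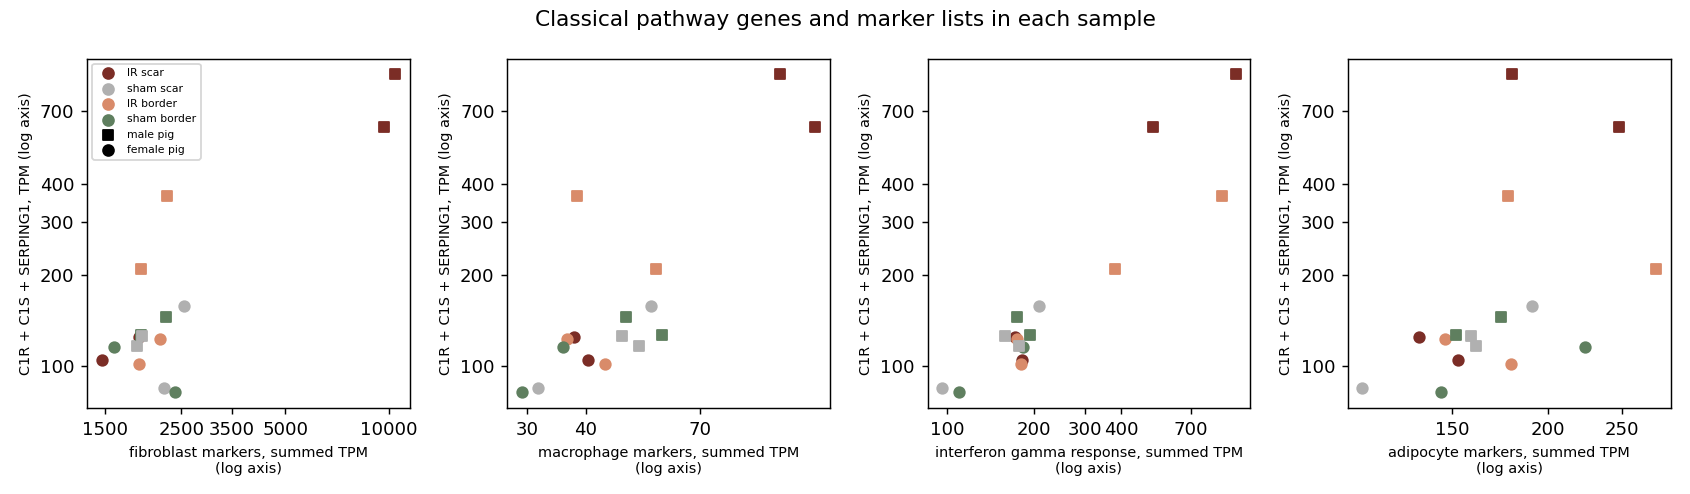
Summed TPM of *C1R*, *C1S* and *SERPING1* against the summed TPM of fibroblast, macrophage, interferon gamma response and adipocyte lists in each of the 16 samples, on log axes; colours give the group, squares male and circles female pigs. The male IR scar zone samples are highest for the complement genes, the fibroblast list and the macrophage list, while the male IR border zone samples are apart on the interferon gamma response list and not on the fibroblast list.

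Markers of other cell types were also summed. The 4 mesothelial markers with an entry (of 8) summed to 27.9 to 37.2 TPM in the male IR scar zone against 5.61 to 8.83 TPM in the female IR and 5.48 to 10.4 TPM in the sham pigs. In this zone the male IR pigs thus stood apart as they did for the fibroblast and macrophage lists. In the border zone female IR pig 2 had the highest sum, 23.9 TPM, against 7.35 and 20.1 TPM in male IR pigs 9 and 11. *KRT8* had the highest values of the 4 markers, at up to 30.2 TPM in the IR and 7.59 TPM in the sham scar zone, where *WT1* reached 5.93 and 3.19 TPM. Cardiomyocyte markers (8 of 8, with *TNNT2* at 8380 TPM or more in the scar zone) summed to 64000 to 67000 TPM in the male IR scar zone and to 65700 to 74700 TPM in the other scar zone samples. Endothelial markers (7 of 8) summed to 355 to 412 TPM in IR and 363 to 438 TPM in sham scar zones, and mural cell markers (8 of 8) to 282 to 533 and 294 to 419 TPM. Hepatocyte markers (6 of 8) summed to 47.5 to 53.1 TPM in the male IR, 21.0 to 37.3 TPM in the female IR and 26.1 to 49.7 TPM in the sham scar zone. *APOA1*, an apolipoprotein gene, reached 51.3 TPM in IR and 48.0 TPM in sham scar zones, and *ALB*, the albumin gene, 1.66 and 0.952 TPM. The part of these markers in the result was not tested either.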

How the data were processed

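The authors extracted RNA from frozen left ventricular tissue, made stranded poly(A) libraries and sequenced them in pairs. Their processing notes name Trimmomatic 0.33, HISAT2 2.0.5 and kallisto 0.43.1, and kallisto with an Ensembl pig cDNA index gave the values. The genome build was not given in the sources used here. The authors deposited estimated counts per gene, without scaling, and TPM, scaled for transcript length and depth. Of 7534 genes listed by Ensembl ID, 915 matched a gene-name table and 889 took that symbol; *CFB* and *CFI* were found in this way.

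Estimated counts were rounded to whole numbers. Tests were run with edgeR 4.0.16 under R 4.3.3, after TMM scaling, with filterByExpr (minimum count 10, total 15), the quasi-likelihood test and Benjamini-Hochberg adjustment over all genes tested. CPM were TMM scaled over all samples, and log2 CPM had a prior count of 2. The study used RUVSeq without giving its settings; a fit with 1 factor of unwanted variation and 5000 control genes, both chosen here, was an alternative. Other alternatives were DESeq2 1.42.0, upper-quartile scaling, no count filter, sex as a covariate, 1 fit of all 16 samples, limma 3.58.1 on log2(TPM + 1) and log2(TPM + 0.1) for genes with at least 1 TPM in at least 4 samples, each pig left out, and each sex alone and the interaction of sex and surgery without each pig, both added after seeing the data. Permutation tests were exact and two-sided.

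The replicate number is the pig, and zone samples of the same pig deviated together (correlations of 0.354 to 0.692 over 14278 genes), so the pig was the block in paired fits. Named genes were all 9 members, other complement genes past the unadjusted threshold between surgeries or zones or without overlap, the markers named first and the 2 nearest patterns per member. *C1QA*, *C1QB*, *C1QC*, *MBL2*, *FCN3*, *APOA1*, *FCN2*, *C4BPA*, *CFP*, *COLEC12* and the terminal components were named after their values were seen. The members and lists were chosen with earlier results of these data known. The tests were checked on simulated data. No sequence is shown, since no sequence table was used here.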

Additional observations from a re-analysis of the deposited data

Results flagged for a closer look

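Of 36 sets of 4 samples (9 genes in 4 groups) examined by Dixon's test, 2 held a sample apart from the others, and chance alone gives about 1 in 20 sets. Sham pig 5 had 42.7 CPM of *C1S* in the border zone, below 77.0 to 84.9 CPM in the other sham pigs, and 1.64 CPM of *C2* in the scar zone, below 5.57 to 6.87 CPM in the others. The IR effect on *C3* in the scar zone differed between male and female pigs by 2.93 on the log2 scale in a test of the interaction, with 2 pigs of each sex per surgery, and it did not pass the adjusted threshold without any 1 of the 8 pigs.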

How the results depend on the processing

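None of the 9 genes was called at the adjusted p-value between surgeries or zones under any setting except in males alone, where edgeR called 7 of 9 in the scar zone. In each list below, the settings are compared with edgeR over 8 pigs, and the cause of each move was not tested. In the scar zone, 7 of the 9 genes were called unadjusted. The count was 4 with 1 factor of unwanted variation, 1 with sex as a covariate, 2 with limma on log2(TPM + 1) or log2(TPM + 0.1), 0 with limma unfiltered, 0 in female pigs, and from 0 to 8 with a pig left out. Over all genes, those called higher numbered 384 with edgeR over 8 pigs, 255 with 1 factor and 272 with sex as a covariate. In the limma fits, in that order, they numbered 127, 201 and 90, and in females 216. In the filtered limma fits on TPM, which also differ in test and gene set, the median log2 fold change of all genes was 0.15 to 0.17 instead of 0.03, beside 1.25 to 1.26 for the 8 genes kept; *CFB* failed the TPM filter. In the border zone (3 called) the count of the 9 genes was 1 with DESeq2, 1 with sex as a covariate, 0 in the single fit of all 16 samples, 0 with each limma fit, 0 in females and 0 to 4 with a pig left out. Over all genes, those called higher numbered 71 with edgeR over 8 pigs, 70 with DESeq2, 58 with sex as a covariate and 68 in the single fit. In the limma fits they numbered 21, 32 and 19, and in females 219. For the IR effect in scar minus border zone (1 called), the count of the 9 genes was 0 with DESeq2, with 1 factor, with sex as a covariate, with each limma fit and in females, 2 without the count filter, 5 in males, 2 with the replicate block and 0 to 4 with a pig left out. Over all genes, those larger in the scar zone numbered 189 in the unblocked fit, 305 without the count filter, 641 in males and 199 with the block. Between zones of IR pigs (2 called) the count of the 9 genes was 5 in the single fit, 0 with each limma fit, 0 in females, 6 in males and 0 to 3 with a pig left out. Over all genes, those called higher in the scar zone numbered 239 in the unblocked fit, 315 in the single fit and 780 in males. Between zones of sham pigs the count of the 9 genes was 0 under every setting run. The male minus female count was 6 to 8 in the scar zone (8 called) and 0 to 4 in the border zone (2 called) with a pig left out. The pig block, which pairs the samples of an animal, changed no other count of these genes.

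Over all genes, the adjusted scar zone count of 0 became 52 with DESeq2, 3, 1 and 1 with limma on log2(TPM + 1), on log2(TPM + 0.1) and unfiltered, 1 in females and 623 in males; in the border zone it became 2 with DESeq2, 1 with 1 factor and 2 in females, for scar minus border 1 in males, between zones of IR pigs 4 with DESeq2 and 2 with each limma fit, and between zones of sham pigs 1 with DESeq2 and 1 with limma on log2(TPM + 1), filtered or not. The unadjusted scar zone count of 470 became 878 unfiltered, 148, 239 and 125 with limma in that order, 1405 in males and 291 to 829 with a pig left out. The border zone count of 109 became 317 unfiltered, 32, 54 and 29 with limma, 346 in females, 266 in males and 69 to 202 with a pig left out. The scar minus border count of 196 became 378 unfiltered, 36, 51 and 38 with limma, 85 in females, 724 in males and 88 to 366 with a pig left out. The IR zone count of 250 became 455 unfiltered, 57, 79 and 37 with limma, 79 in females, 841 in males and 73 to 396 with a pig left out. The sham zone count of 14 became 96 unfiltered, 5 and 7 with limma on log2(TPM + 1), filtered and not, 40 in females, 32 in males, 28 with the replicate block and 15 to 37 with a pig left out.

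Of 45 log2 values that changed sign, 17 did so in females alone. In the scar zone these were -0.077 for *C1R*, -0.27 for *C1S*, -0.57 for *C3*, -0.32 for *C7*, -0.38 for *CFB* and -0.21 for *CFI*; in the border zone 0.26 for *C7* and -0.41 for *CFB*; for scar minus border -0.20 for *C1R*, -0.26 for *C1S*, -0.54 for *C2*, -0.56 for *C7* and -0.49 for *CFI*; between IR zones -0.074 for *C1S*, -0.25 for *C7* and -0.46 for *CFI*; and between sham zones 0.32 for *C7*. In males they turned for *C3* in the border zone (0.15), for *CFD* between IR zones (-0.065), and between sham zones for *C1R* (-0.11), *C1S* (-0.096), *C2* (-0.16), *C3* (-0.26) and *SERPING1* (-0.080). Without pig 11, *CFB* was at -0.14 in the border zone and without pig 11 or 14 *CFD* was at -0.034 or -0.033 between IR zones. With a pig left out, *CFB* ran from -0.14 to 0.47 in the border zone. For scar minus border, *CFD* was at 0.052 with limma on log2(TPM + 1), filtered or not, and in the permutation test on that scale, at 0.054 on log2(TPM + 0.1), and from -0.19 to 0.0056 (without pig 9) with a pig left out. Between sham zones *C3*, at 0.00 in the unpaired fit, was at -0.019 with 1 factor or sex, at -0.015 and -0.020 with limma on log2(TPM + 1) and log2(TPM + 0.1), at -0.033 with the replicate block, at -0.028 and -0.018 without pig 5 and 12, and from -0.14 (without pig 4) to 0.18 with a pig left out. In the same way *C1R*, *C1S*, *C2* and *SERPING1* had their lowest values without pig 4 and ran from -0.044 to 0.11, -0.059 to 0.074, -0.14 to 0.50 and -0.033 to 0.087. Of the other single values, 632 kept their side of the threshold, 106 lost it and 34 gained it. Depth limits *CFB* most, at 7 to 28 counts in most libraries.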
